A study of Mus musculus with 9 samples.

Results

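The transcripts described here are those of Apoe and 8 other genes that carry lipids into, through and out of microglia, the resident macrophages of the brain. The genes are Apoe and Lrp1 (a lipoprotein and one of its receptors), Lpl, Fabp5, Cd36 and Acsl1 (release, binding, uptake and activation of fatty acids), Plin2 (the coat of lipid droplets), and Abca1 and Abcg1 (export of cholesterol). They are 9 of the 24421 genes of the count table, listed by name with no threshold on their values, but with earlier results of these data known. All 9 passed the filter on low counts.

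RNA was sequenced from live CX3CR1+, CD45+ and CD11b+ cells sorted from mouse brain, in 9 libraries with 3 each labelled WT, FD and MLIV. WT mice were littermate controls, FD (Fabry disease) mice were given as Gla y/-, a loss of the lysosomal alpha-galactosidase A, and MLIV (mucolipidosis type IV) mice were Mcoln1-/-, without the lysosomal cation channel TRPML1. All were labelled with the strain C57CL6J, and both mutations are constitutive, so they were present in every cell of the mouse and not only in microglia. The title of the series gives an age of 4 months, whereas the study's methods give a younger age for the sorted mice. The Mcoln1 line was kept as heterozygotes crossed with each other, which gives mutants and control littermates, but the Gla line was kept as homozygotes, so in FD against WT the genotype and the colony cannot be told apart. Nor can the sex, as shown next. The study's methods give 4 mice sorted per condition, whereas there were 3 libraries per label. The sources used here do not say whether a library was made from 1 mouse or from several, so the p-values measure the spread between libraries.

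The libraries held 22772260 to 37801159 counts, with 12032 (FD replicate 3) to 22932 (WT replicate 1) genes detected. Mcoln1 had 1082 and 1517 counts in WT replicates 1 and 2, 892 to 1442 in FD, and 0, 0 and 18 in MLIV. It had 2 counts in the library labelled WT replicate 3, which goes against that label. All comparisons were therefore made with all 9 libraries as labelled and with the 8 libraries that remain without that one. Levels are given as CPM, the count divided by the library size scaled with TMM factors (edgeR's normalization) and multiplied by 1e6. Gla did not separate FD from WT, with 4.56 to 4.82 CPM in FD and 4.56, 8.16 and 10.8 CPM across the WT label. The 14 microglial markers were all above 1 CPM in each library and summed to 25559 to 31866 CPM. Xist, made from the inactive X chromosome of females, was at 1358 to 1521 CPM in FD and at most 4.10 CPM in WT, and in MLIV replicates 1, 2 and 3 it was at 1448, 1026 and 4.00 CPM. The Y-linked Ddx3y was at 89.2 to 118 CPM in WT, had 0 to 2 counts in FD and was at 0, 26.6 and 76.7 CPM in MLIV. The FD libraries thus had the transcripts of females, which goes against the y/- of a male genotype, and all 3 libraries labelled WT had those of males. MLIV replicate 2 held both kinds, MLIV replicate 1 those of a female and MLIV replicate 3 those of a male.

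Microglia take up lipoproteins, myelin debris and free fatty acids. Apolipoprotein E is the main protein of the lipoprotein particles made in the brain, and LRP1 is a large endocytic receptor that binds it. Fatty acids freed by lipoprotein lipase or taken up through CD36 are bound by FABP5 and joined to coenzyme A by ACSL1, and a surplus of neutral lipid is stored in droplets coated by perilipin 2. ABCA1 and ABCG1 move cholesterol and phospholipid out of the cell, and the genes of both transporters, with Apoe, are known targets of the oxysterol receptors LXR. Apoe, Lpl and Fabp5 are among the genes known to be raised in microglia near lesions or amyloid in mice.

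The bases before the start sites of Apoe, Plin2 and Abca1 are shown because Apoe and Plin2 differed between groups and Abca1 holds the same short motif as Plin2 while changing little. Promoter windows of RefSeq (assembly GRCm38.p6, which is mm10) matched 6 of the 9 genes, with none found here for Lpl, Fabp5 and Abcg1. The capitals mark matches, on either strand, to CACGTG (the core of the element bound by TFEB and other basic helix-loop-helix factors) or AGGTCA (the half-site of nuclear receptors). The 250 bases that end next to the start site at chr7:19699189-19699438 (minus strand) for Apoe, chr4:86670060-86670309 (minus strand) for Plin2 and chr4:53159896-53160145 (minus strand) for Abca1 read 5′ to 3′:
Apoe: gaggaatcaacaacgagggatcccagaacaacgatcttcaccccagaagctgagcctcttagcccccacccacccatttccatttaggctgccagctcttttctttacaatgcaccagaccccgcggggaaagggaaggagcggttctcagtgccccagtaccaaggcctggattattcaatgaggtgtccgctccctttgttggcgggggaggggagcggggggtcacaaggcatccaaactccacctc
Plin2: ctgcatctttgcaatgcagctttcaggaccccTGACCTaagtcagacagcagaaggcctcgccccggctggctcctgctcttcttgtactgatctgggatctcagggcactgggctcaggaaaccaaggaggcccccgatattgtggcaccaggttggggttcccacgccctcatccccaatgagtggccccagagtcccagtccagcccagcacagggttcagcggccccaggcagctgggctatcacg
Abca1: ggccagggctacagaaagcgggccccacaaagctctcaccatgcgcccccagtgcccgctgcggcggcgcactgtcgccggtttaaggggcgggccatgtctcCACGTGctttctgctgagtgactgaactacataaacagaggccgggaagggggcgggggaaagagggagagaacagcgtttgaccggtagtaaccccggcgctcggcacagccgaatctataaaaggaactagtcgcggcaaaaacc

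Plin2 also holds a CACGTG that begins 4 bases before its start site, seen in the 30 bases across that site (chr4:86670045-86670074, minus strand):
Plin2 start: agctgggctatCACGTGgctcggaggcttg

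In the windows of 300 bases (250 before and 50 from the start), CACGTG was found once in Plin2 and once in Abca1, where it begins 147 bases before the start, and 7.15% of the 32851 mouse windows hold it. AGGTCA was found once in Plin2 and once in Cd36 and is held by 16.3% of all windows. Neither motif, nor TGANTCA (the AP-1 site, in 7.81% of windows), was found in the Apoe, Acsl1 or Lrp1 windows, and TGANTCA was in none of the windows of these 6 genes. The only Cd36 window belongs to a start site 53063 bases inside the gene as counted. Further Apoe windows, not shown, belong to start sites 567 and 790 bases inside the gene. A match is a run of letters and not a measured binding site.

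Per kilobase of exon, Apoe had the highest mean level over all 9 libraries, with 1721 CPM per kilobase, followed by Lrp1 with 232, Abca1 with 106 and Abcg1 with 37.3 CPM per kilobase. Plin2 (15.6), Lpl (11.4) and Acsl1 (10.1) lay close together, and their ranges over libraries overlapped. Fabp5 had 6.89 and Cd36, the lowest, 1.48 CPM per kilobase. The genes also differed in how far they varied. The highest library was 16.3-fold above the lowest for Fabp5, 12.7-fold for Apoe and 10.4-fold for Cd36, but 1.54-fold for Lrp1, 1.46-fold for Abcg1 and 1.41-fold for Abca1. No exon of these genes shares a base with an exon of another gene in GENCODE M21 on either strand.

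**Figure D1:**
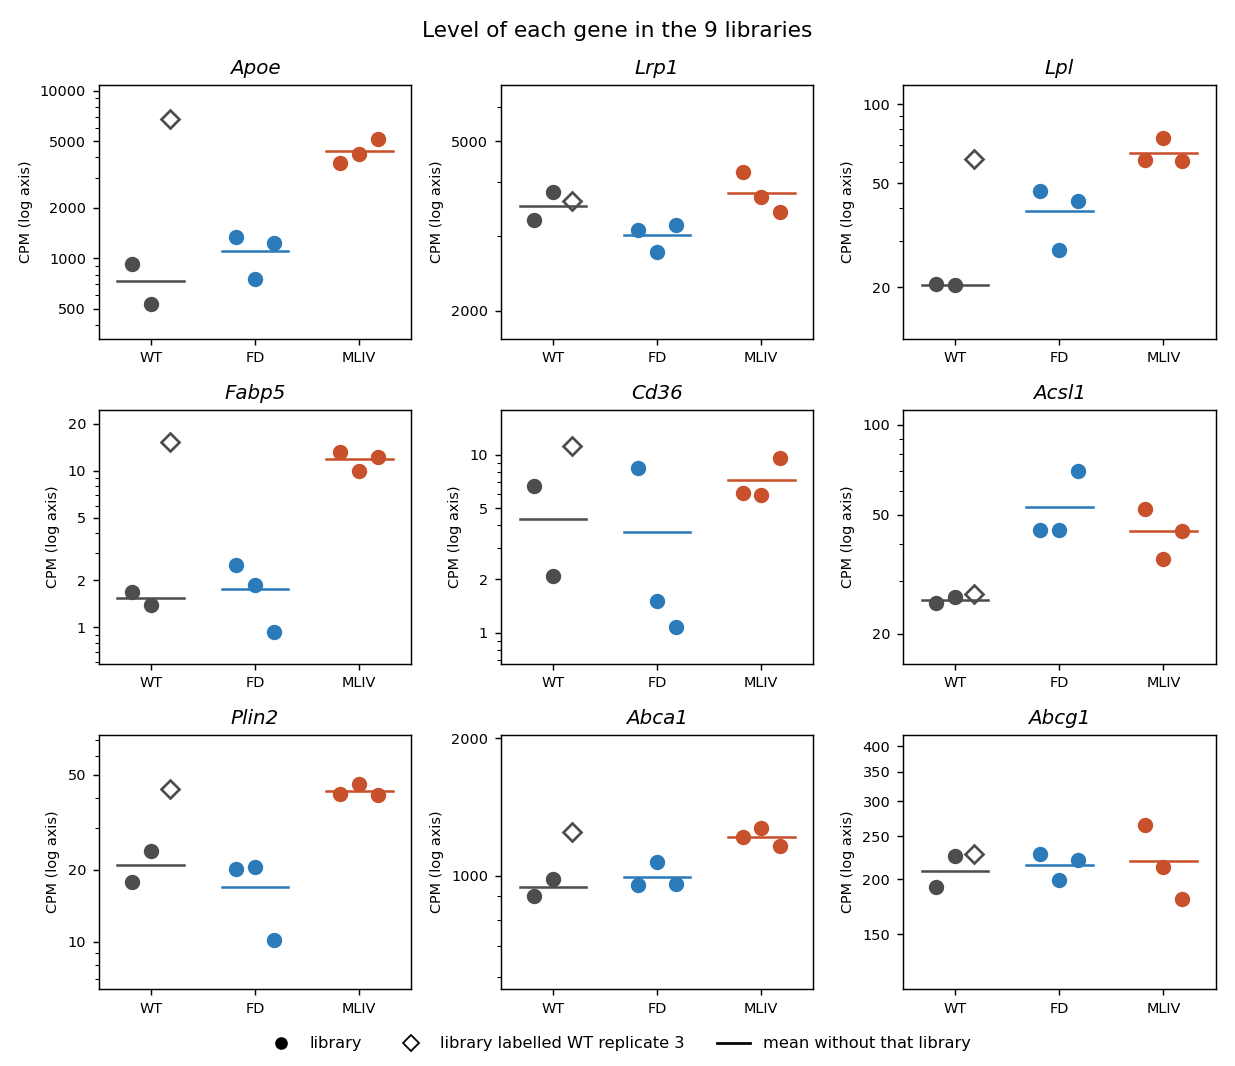
Level of each of the 9 genes in CPM (log axis) in each library, by label. Circles are libraries, the open diamond is the library labelled WT replicate 3 and the line is the mean of a group without that library. The diamond sits with the MLIV libraries for Apoe, Lpl, Fabp5, Plin2 and Abca1 and with the WT libraries for Acsl1.

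Apoe (chromosome 7, 19696244 to 19699188 in mm10, as are the positions that follow) encodes the lipoprotein itself. It was at 925 and 531 CPM in WT replicates 1 and 2 and at 1337, 752 and 1227 CPM in FD. It was at 3716, 4196 and 5119 CPM in MLIV. The library labelled WT replicate 3 was the highest of all, at 6761 CPM. Without that library MLIV lay above WT and FD with no overlap, while FD overlapped WT. In the 8-library fit Apoe was 5.91-fold higher in MLIV than in WT (log2 fold change 2.56 ± 0.32 (SE), edgeR quasi-likelihood test, adjusted p = 0.00206) and 3.92-fold higher than in FD (1.97 ± 0.26, adjusted p = 0.00174). In FD against WT the log2 fold change was 0.59 ± 0.29 (adjusted p = 0.983).

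Lrp1 (chromosome 10, 127538158 to 127621148), which encodes the receptor, differed little. It was at 3258 and 3801 CPM in WT replicates 1 and 2, 3628 CPM in the library labelled WT replicate 3, 3089, 2752 and 3180 CPM in FD, and 4236, 3705 and 3416 CPM in MLIV. All FD libraries lay below all others, but the difference did not pass the test against WT (log2 fold change -0.24 ± 0.15 with 8 libraries, edgeR adjusted p = 0.983) or, for MLIV against FD, at 0.33 ± 0.14 (adjusted p = 0.218). In MLIV against WT it was 0.09 with a 95% interval of -0.24 to 0.42.

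Lpl (chromosome 8, 68880555 to 68906932) encodes the lipase that frees fatty acids from lipoproteins. It was at 20.6 and 20.4 CPM in WT replicates 1 and 2, which hardly differed. It was at 46.7, 27.7 and 42.7 CPM in FD, at 61.4, 73.9 and 60.7 CPM in MLIV. The library labelled WT replicate 3 was at 61.7 CPM. Without it the 3 groups did not overlap and stood in the order WT, FD, MLIV. Lpl was 3.16-fold higher in MLIV than in WT (log2 fold change 1.66 ± 0.24, edgeR adjusted p = 0.00122) and 1.67-fold higher than in FD (0.74 ± 0.20, adjusted p = 0.0432). For FD against WT the value of 0.92 ± 0.23 did not pass (adjusted p = 0.221).

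Fabp5 (chromosome 3, 10012585 to 10016610), the fatty acid binding protein of macrophages and skin, was the least abundant of the genes that differed and had the largest fold of the 9 genes in MLIV against WT and against FD. It had 44 and 48 counts (1.68 and 1.39 CPM) in WT replicates 1 and 2 and 80, 57 and 28 counts (2.49, 1.87 and 0.938 CPM) in FD. It had 456, 320 and 395 counts (13.1, 10.01 and 12.3 CPM) in MLIV. The library labelled WT replicate 3 had 538 (15.2 CPM). Fabp5 was 7.59-fold higher in MLIV than in WT (log2 fold change 2.92 ± 0.64, edgeR adjusted p = 0.0296) and 6.64-fold higher than in FD (2.73 ± 0.54, adjusted p = 0.00755). Fabp5 has processed copies elsewhere in the mouse genome, so its counts are uncertain where reads fit more than 1 place.

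Cd36 (chromosome 5, 17781690 to 17888959), a scavenger receptor and fatty acid transporter, was the least abundant of the 9 genes per kilobase and varied widely within WT and FD. It was at 6.62 and 2.09 CPM in WT replicates 1 and 2, 11.1 CPM in the library labelled WT replicate 3, 8.46, 1.51 and 1.07 CPM in FD and 6.09, 5.94 and 9.55 CPM in MLIV. All groups overlapped. The log2 fold change of MLIV against WT was 0.71 with a 95% interval of -1.11 to 2.54, so a difference could not be detected at this spread.

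Acsl1 (chromosome 8, 46471037 to 46536051), the acyl-CoA synthetase, had another pattern. It was at 25.4, 26.6 and 27.1 CPM under the WT label, and here replicate 3 lay with replicates 1 and 2. It was at 44.5, 44.4 and 70.1 CPM in FD and at 52.3, 35.6 and 44.3 CPM in MLIV, so that both mutants lay above all 3 WT libraries and overlapped each other. The log2 fold changes against WT were 1.00 ± 0.21 in FD (edgeR, 9 libraries, adjusted p = 0.0953) and 0.74 ± 0.21 in MLIV (adjusted p = 0.999), and neither passed the test. Both comparisons share the WT libraries. With 8 libraries the edgeR values were 1.02 ± 0.24 (adjusted p = 0.151) and 0.75 ± 0.24 (adjusted p = 0.174).

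Plin2 (chromosome 4, 86656565 to 86670059) encodes the droplet coat. It was at 17.8 and 23.9 CPM in WT replicates 1 and 2, at 20.2, 20.5 and 10.1 CPM in FD, at 41.6, 45.6 and 41.2 CPM in MLIV. The library labelled WT replicate 3 was at 43.5 CPM. MLIV lay above FD and the other WT libraries with no overlap. Against FD, Plin2 was 2.51-fold higher in MLIV (log2 fold change 1.33 ± 0.26, edgeR, 8 libraries, adjusted p = 0.00737). Against WT the value of 1.02 ± 0.30 did not pass (adjusted p = 0.122).

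The exporters Abca1 (chromosome 4, 53030789 to 53159895) and Abcg1 (chromosome 17, 31057694 to 31117981) changed little. Abca1 was at 903 and 985 CPM in WT replicates 1 and 2, 1249 CPM in the library labelled WT replicate 3, 956, 1071 and 959 CPM in FD and 1217, 1270 and 1158 CPM in MLIV. MLIV lay above FD and above WT replicates 1 and 2, yet the log2 fold changes of 0.35 ± 0.14 against WT (edgeR, 8 libraries, adjusted p = 0.382) and 0.28 ± 0.13 against FD (adjusted p = 0.252) did not pass. Abcg1 was at 192, 225 and 228 CPM under the WT label, 228, 199 and 220 CPM in FD and 265, 213 and 181 CPM in MLIV, and all groups overlapped. Its log2 fold change was 0.06 for MLIV against WT, with a 95% interval of -0.30 to 0.42. With library totals in place of TMM factors it was -0.14, and that of Lrp1 was -0.11, where the median of all genes shifted by -0.20.

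**Figure D2:**
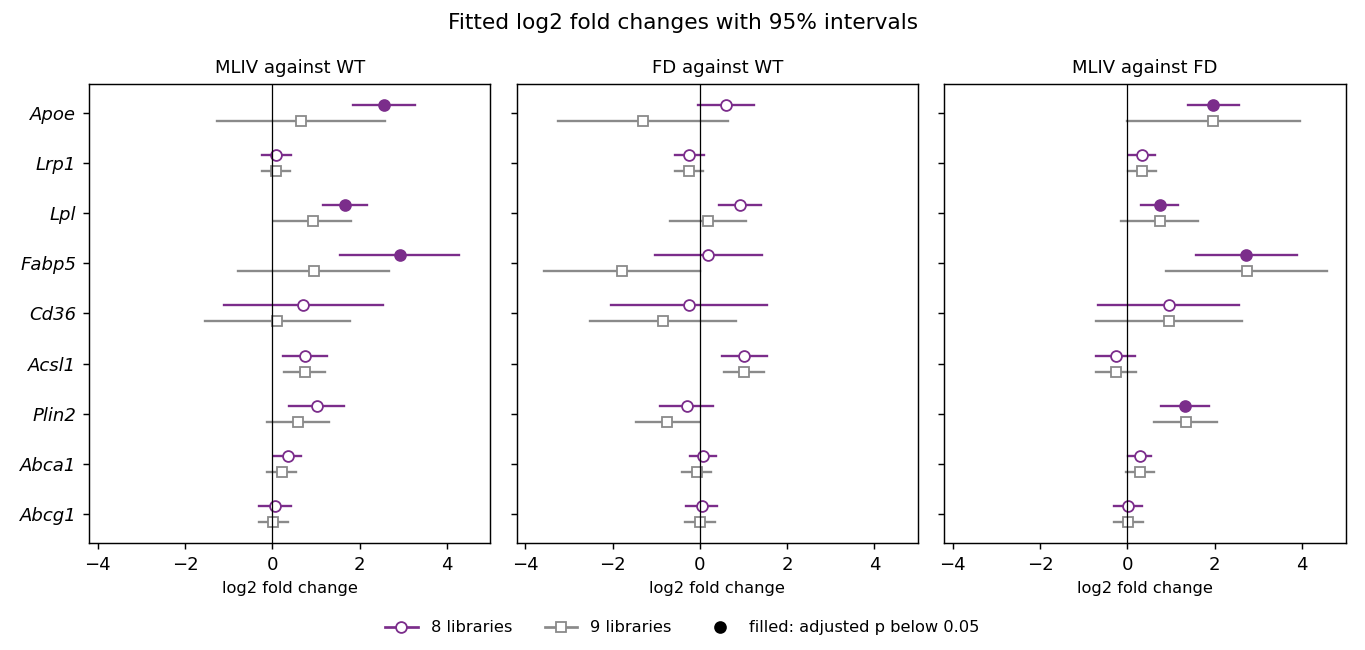
Fitted log2 fold change of each gene with its 95% interval in the 3 comparisons, from 8 libraries (circles) and from 9 libraries (squares). Filled symbols have an adjusted p below 0.05. With 8 libraries Apoe, Lpl and Fabp5 are filled in MLIV against WT, and Plin2 joins them in MLIV against FD. No square is filled.

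The comparison of MLIV with WT set libraries labelled Mcoln1-/- against those of littermate controls. Sex was not balanced in it. The WT libraries had the transcripts of males, MLIV replicate 1 had those of a female and MLIV replicate 2 held both kinds. With 8 libraries 3 of the 9 genes passed the test and were higher in MLIV (Apoe, Lpl and Fabp5), and none was lower. Of the 17440 genes tested, 1.55% were higher and 0.149% were lower by the same rule. The median log2 fold change was 0.75 over the 9 genes and -0.13 over all genes. For 6 of the 9 genes MLIV lay above WT with no overlap, as for 17.4% of all genes. Each of the 8 libraries was then left out in turn, where a single remaining WT library is taken to vary like the other groups. Apoe and Lpl passed after each of the 8 removals, with log2 fold changes of 2.23 to 3.02 for Apoe. Fabp5 lost its call without WT replicate 1 (adjusted p = 0.341), WT replicate 2 (0.24) or any of the MLIV replicates 1, 2 and 3 (0.192, 0.133 and 0.139). Without FD replicate 3 the count was 6, with Plin2 (adjusted p = 0.000184), Acsl1 (0.00294) and Abca1 added, while calls among all genes rose from 296 to 1515 (8.68% of those tested). With library totals Fabp5 lost its call (0.0596), and DESeq2 gave it no adjusted p but called Plin2 (0.0458) and Abca1 (0.0477).

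With all 9 libraries as labelled none of the 9 genes passed in MLIV against WT, and neither did any of the 15340 genes tested, which gives 0% called (edgeR), while 712 had an unadjusted p below 0.05 and DESeq2 called 14 genes. The log2 fold change of Apoe was then 0.66 ± 0.83 (adjusted p = 0.999), that of Lpl 0.93 ± 0.40 and that of Fabp5 0.95 ± 0.79. For 1 of the 9 genes, Acsl1, MLIV lay above WT with no overlap, against 6.62% of all genes. In the library labelled WT replicate 3, Apoe was 9.29-fold, Fabp5 9.90-fold, Lpl 3.01-fold and Plin2 2.09-fold above the mean of WT replicates 1 and 2. Relative to the MLIV mean the same library was at 1.56-fold for Apoe, 1.29-fold for Fabp5, 0.944-fold for Lpl and 1.02-fold for Plin2.

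The direct comparison set the MLIV libraries against the FD libraries, and genotype, colony and sex are not separated in it. The FD libraries had the transcripts of females, and those of MLIV were mixed. With 8 libraries 4 of the 9 genes were higher in MLIV than in FD (Apoe, Lpl, Fabp5 and Plin2) and none was lower, where 3.5% of all genes tested were called higher and 2.13% lower. The median log2 fold change was 0.74 over the 9 genes and -0.03 over all genes. With 9 libraries none of the 9 passed (0.717% of all genes higher, 0.548% lower, edgeR), and 3 had an unadjusted p below 0.05. For 6 of the 9 MLIV lay above FD with no overlap (Apoe, Lrp1, Lpl, Fabp5, Plin2 and Abca1), as for 16% of all genes. The fold changes were almost the same in both fits, since both groups keep all of their libraries (1.97 for Apoe in each), and the errors differed (0.86 with 9 and 0.26 with 8 libraries for Apoe). Of the 4 calls, only that of Apoe was kept after each of the 8 removals. Lpl lost its call without WT replicate 1 (adjusted p = 0.0695), FD replicate 2 (0.0995) or MLIV replicate 1, 2 or 3 (0.11, 0.197 and 0.0856). Fabp5 lost it without MLIV replicate 1 (0.0731) or 3 (0.0528) and Plin2 without MLIV replicate 2 (0.0549). Without FD replicate 3 the count was 5, with Lrp1 added, while calls among all genes rose from 982 to 1885 (10.8% of those tested). Lpl also lost its call with library totals (0.0763) and with only the groups compared (0.0868), and DESeq2 added Abca1 (0.0335) and Lrp1 (0.0275).

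In FD against WT, where genotype, colony and sex cannot be told apart, none of the 9 genes passed with 8 or with 9 libraries (edgeR). Of all genes 0.31% passed with 8 libraries and 0.339% with 9. At an unadjusted p below 0.05 there were 2 of the 9 in each fit, Lpl and Acsl1 with 8 libraries and Acsl1 and Plin2 with 9, and DESeq2 called Acsl1 with either set. In 3 of the 9 genes FD and WT did not overlap with 8 libraries (Lpl and Acsl1 higher, Lrp1 lower), as in 18% of all genes, and in 2 with 9 libraries (Acsl1 higher, Lrp1 lower), as in 12.6% of all genes. Without FD replicate 3 the 8-library fit called Lpl (adjusted p = 0.0427) and Acsl1 (0.0402), with 122 calls among all genes in place of 54, and without FD replicate 2 it called Lpl (0.046).

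**Figure D3:**
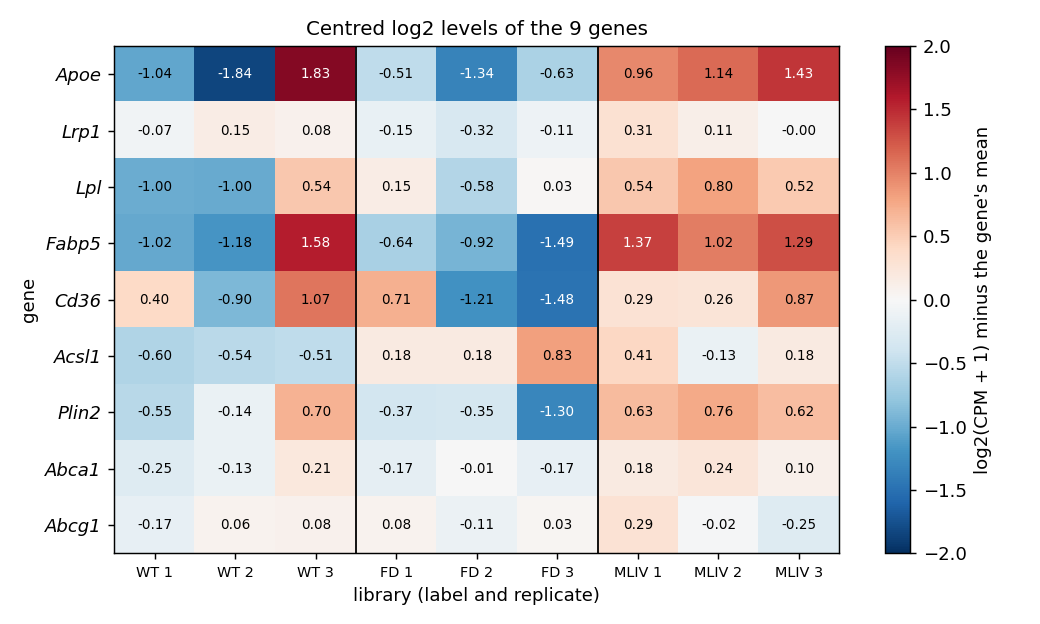
Level of each gene in each library as log2(CPM + 1) minus the mean of that gene over the 9 libraries. Red is above and blue below the mean. The library labelled WT replicate 3 reaches 1.83 for Apoe and 1.58 for Fabp5, as the MLIV libraries do at 0.96 to 1.43 and 1.02 to 1.37, but lies at -0.51 for Acsl1, next to -0.60 and -0.54 in the other WT libraries.

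The genes did not move as one. The likeness of 2 profiles was measured as the root mean square difference of their centred log2(CPM + 1) values over the 9 libraries, where 0 is identity. Apoe was nearest to Fabp5 (0.42), then Lpl (0.74) and Plin2 (0.87), and was farthest from Acsl1 (1.32). Abca1, Abcg1 and Lrp1 were near each other (0.15 to 0.21), which partly reflects that each varied little. These values describe 9 libraries that share the same cells and scaling for all genes.

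Among 8663 genes with a mean of at least 10 CPM, the 5 most like Apoe were Clec7a (0.26), Ifitm3 (0.28), Vcam1 (0.30), Oasl2 (0.36) and Ifit3b (0.38), against a median of 1.27. Clec7a encodes a receptor for fungal glucans, Vcam1 an adhesion molecule, and Ifitm3, Oasl2 and Ifit3b are induced by interferon. Clec7a was at 30.7 and 18.0 CPM in WT replicates 1 and 2, 159 CPM in the library labelled WT replicate 3, 40.4, 21.8 and 28.1 CPM in FD and 153, 157 and 146 CPM in MLIV. Ifitm3 was at 10.7 and 11.3 CPM, then 73.2 CPM, with 18.3, 11.1 and 18.7 CPM in FD and 58.2, 68.6 and 80.5 CPM in MLIV. For both genes FD overlapped WT replicates 1 and 2, and MLIV and the remaining WT library lay far above. These genes were picked for their likeness to Apoe in the same libraries, so their levels are a description and no test result is given for them.

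**Figure D4:**
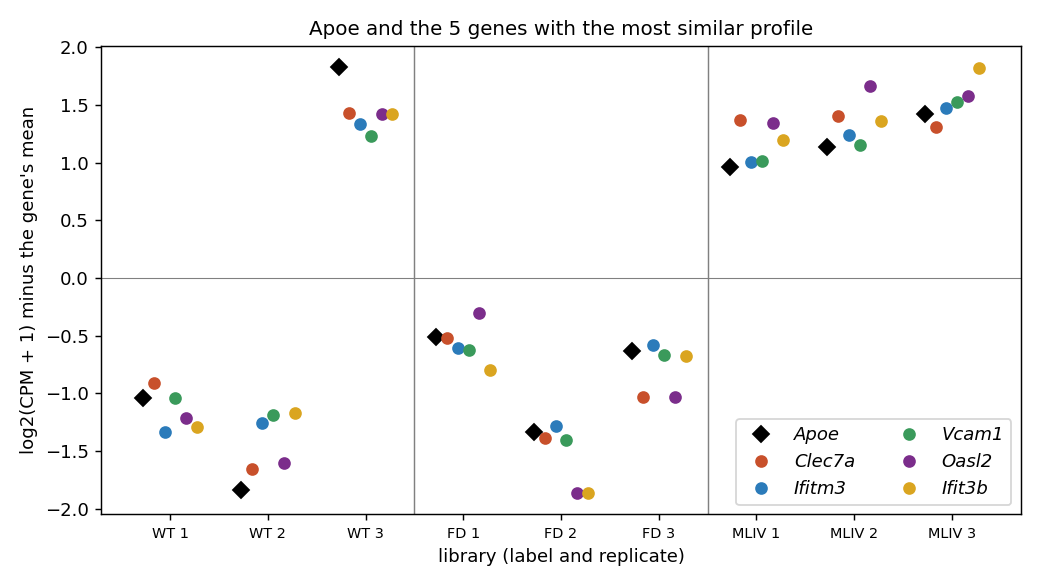
Centred log2(CPM + 1) of Apoe (black diamonds) and of the 5 genes with the lowest root mean square difference from it, in each library. All 6 genes lie above their mean in MLIV and under the label WT replicate 3, and below it in the other 5 libraries.

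Beyond the 9 genes, 128 others on 7 lists of lipid handling genes were followed, of which 119 were tested with 8 libraries. In MLIV against WT 5 of them were higher and 1 was lower, against 1.55% higher and 0.149% lower among all genes tested, with a median log2 fold change of 0.03 over the 119 and -0.13 over all genes. In MLIV against FD 7 were higher and 3 were lower (3.5% and 2.13% of all genes, median 0.07 against -0.03), and in FD against WT none was higher and 1 was lower (-0.11 against -0.12). The count for MLIV against WT was 2 without WT replicate 1, 3 without MLIV replicate 1 or 2 and 16 without FD replicate 3, where 1515 of all genes were called. For MLIV against FD it was 5 without MLIV replicate 1, 6 without MLIV replicate 2 and 19 without FD replicate 3, where 1885 of all genes were called. With 9 libraries 116 were tested. None passed in either comparison with WT (edgeR), and 1 was higher and 3 were lower in MLIV than in FD. With 8 libraries DESeq2 called 10 in MLIV against WT, 17 in MLIV against FD and 2 in FD against WT. With 9 libraries it called 1, 17 and 2. With only the groups compared, edgeR called 16 in MLIV against WT with 8 libraries. An absolute log2 fold change above 1 as a further demand left 3 in MLIV against WT and 5 in MLIV against FD with 8 libraries.

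Of the 25 other lipoprotein and receptor genes 22 were tested, and Sorl1 was the only 1 that passed (edgeR, 8 or 9 libraries). It encodes a sorting receptor that binds Apoe. Sorl1 was at 81.3 and 92.4 CPM in WT replicates 1 and 2, 160 CPM in the library labelled WT replicate 3, 39.4, 47.7 and 58.2 CPM in FD and 163, 177 and 172 CPM in MLIV. The FD libraries were lowest and the MLIV libraries, with that WT library, highest. With 8 libraries it was 1.95-fold higher in MLIV than in WT (log2 fold change 0.96 ± 0.18, edgeR adjusted p = 0.00849), and in FD the log2 fold change against WT was -0.85 ± 0.17 (adjusted p = 0.0493). Against FD it was 3.52-fold higher in MLIV (1.82 ± 0.16, adjusted p = 1.48e-05), and this call held after each removal. The call against WT was lost without WT replicate 1 (adjusted p = 0.231) or MLIV replicate 2 (0.0544). That of FD against WT was lost in 7 of 8 removals, all but that of FD replicate 3.

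All 13 other scavenger receptor genes were tested, and 2 were higher in MLIV than in WT with 8 libraries. Cxcl16, a membrane-bound chemokine that also binds oxidised lipoprotein, was at 65.9 and 69.4 CPM in WT replicates 1 and 2, 185 CPM in the library labelled WT replicate 3, 77.3, 71.2 and 76.8 CPM in FD and 190, 202 and 189 CPM in MLIV. Its log2 fold change was 1.51 ± 0.15 against WT (edgeR adjusted p = 0.000186) and 1.36 ± 0.13 against FD (2.72e-05). Cd68, a lysosomal glycoprotein, was at 394 and 454 CPM in WT replicates 1 and 2, 776 CPM in the library labelled WT replicate 3, 333 to 533 CPM in FD and 713 to 810 CPM in MLIV (0.84 ± 0.19, adjusted p = 0.036). The calls of Cxcl16 held after each removal, whereas that of Cd68 against WT was lost without WT replicate 1 (adjusted p = 0.536) or MLIV replicate 1, 2 or 3 (0.175, 0.167 and 0.0953), with library totals (0.155) and with at least 10 counts in every library (0.0611). Stab1, also on the border macrophage list an endocytic receptor, was lower in MLIV (320 to 412 CPM) than in FD (566 to 639 CPM), at -0.72 ± 0.14 (adjusted p = 0.00532, and 0.0548 and 0.0501 without MLIV replicates 2 and 3). Colec12, a scavenger receptor of the collectin family, was at 73.8 to 84.8 CPM in FD and at 3.41 to 7.74 CPM in MLIV (-3.89 ± 0.59, adjusted p = 0.0117, and 0.0526 and 0.0708 without FD replicate 3 and MLIV replicate 1). It was at 1.05 to 11.1 CPM in WT, below every FD library. FD against WT was at 4.60 ± 0.73 with 8 libraries and did not pass (edgeR adjusted p = 0.0958). DESeq2 called Colec12 in FD against WT with 8 and with 9 libraries. So did edgeR with no filter on low counts (8 libraries) and with at least 10 counts in every library (9 libraries).

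Of the 12 other efflux genes, all tested, Npc2 and Nceh1 were higher in MLIV with 8 libraries, against WT and against FD. NPC2 hands cholesterol to NPC1 inside the lysosome and NCEH1 cleaves cholesterol esters. Npc2 was at 182 and 263 CPM in WT replicates 1 and 2, 500 CPM in the library labelled WT replicate 3, 211, 209 and 141 CPM in FD and 525, 495 and 498 CPM in MLIV. Its log2 fold change was 1.17 ± 0.20 against WT (edgeR adjusted p = 0.00598) and 1.43 ± 0.18 against FD (0.000178). Nceh1 was at 17.8 and 18.4 CPM in WT replicates 1 and 2, 42.8 CPM in the library labelled WT replicate 3, 18.7, 17.1 and 30.01 CPM in FD and 50.8, 43.9 and 45.0 CPM in MLIV. Its values were 1.35 ± 0.26 against WT (adjusted p = 0.012) and 1.08 ± 0.22 against FD (0.00969). In both genes MLIV lay above all FD libraries and WT replicates 1 and 2. The call against WT was lost for Npc2 without WT replicate 1 (adjusted p = 0.199), and for Nceh1 without WT replicate 1 (0.248), WT replicate 2 (0.058) or MLIV replicate 1 (0.0697), which also ended its call against FD (0.061).

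In the edgeR fits with 8 libraries the remaining lists changed in few members. None of the 18 tested lipase and uptake genes passed in any comparison with 8 libraries, including Lipa, the lysosomal acid lipase (0.48 ± 0.17 for MLIV against WT, edgeR adjusted p = 0.283). Fabp3, with 0 to 45 counts in FD and 132 to 212 in MLIV, was at 3.05 ± 1.18 in MLIV against FD (edgeR adjusted p = 0.171). DESeq2 called Fabp3 in that comparison. Against WT it was at 2.88 ± 1.38 (edgeR adjusted p = 0.515). Of the 17 genes of fatty acyl-CoA synthesis and oxidation, Hadha, a subunit of the mitochondrial trifunctional protein, was higher in MLIV when set against FD (0.60 ± 0.14, adjusted p = 0.0204, but 0.0984 and 0.0886 without MLIV replicates 1 and 2), and none passed against WT. Of the 19 tested droplet genes, Lpin1, a phosphatidate phosphatase, was higher in MLIV against FD (0.55 ± 0.15, adjusted p = 0.0453), a call lost in 6 of 8 removals, those of WT replicate 1 (0.0689), FD replicates 1 and 2 (0.166 and 0.0733) and MLIV replicates 1, 2 and 3 (0.0852, 0.198 and 0.103). Soat1, which esterifies cholesterol for storage, was at 0.72 ± 0.18 in MLIV against WT and did not pass (adjusted p = 0.0574). Of the 18 LXR, RXR and PPAR factors and their partners, Mlxipl, a glucose-responsive transcription factor, was lower in MLIV than in WT (-0.75 ± 0.17, adjusted p = 0.036) and in FD (-0.99 ± 0.16, adjusted p = 0.00124), and the other 17 did not pass. The call against WT was lost in 5 of 8 removals, those of WT replicates 1 and 2 (0.266 and 0.14) and MLIV replicates 1, 2 and 3 (0.211, 0.0991 and 0.12).

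**Figure D5:**
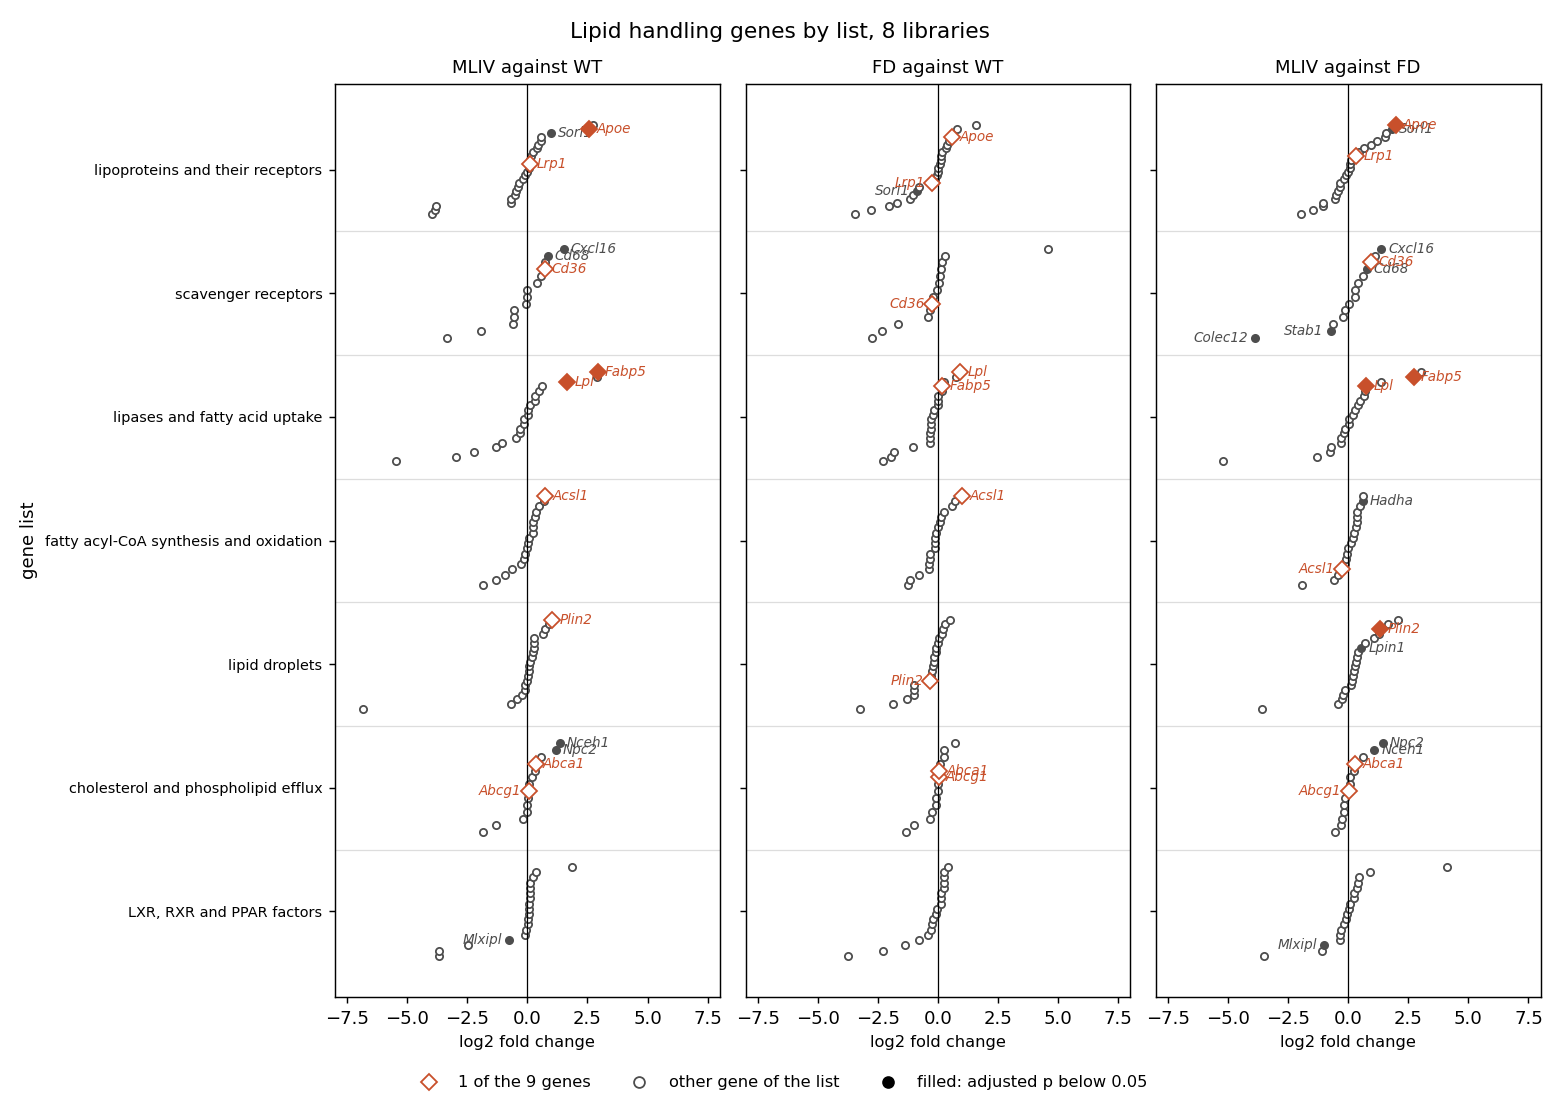
Fitted log2 fold change (x axis) of every tested gene on the 7 lipid handling lists in the 3 comparisons with 8 libraries, ordered by value within each list. Diamonds are the 9 genes, circles are the other genes of a list and filled symbols have an adjusted p below 0.05. Apoe, Lpl and Fabp5 lie at 2.56, 1.66 and 2.92 in MLIV against WT, while most genes of every list lie near 0.

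Markers of some other cells differed between the groups. The 10 neutrophil markers summed to 156 to 291 CPM in MLIV, 29.1 to 59.1 CPM under the WT label and 1.41 to 6.07 CPM in FD, with 8 or 9, 6 to 9 and 1 to 3 of them above 1 CPM. In FD replicate 3, 7 of the 10 were at 0 counts. The 11 monocyte markers summed to 134 to 150 CPM in MLIV, 79.6 to 102 CPM in WT and 56.6 to 74.8 CPM in FD, and 4 of them were at 0 counts in FD replicate 3. The library labelled WT replicate 3 had 57.1 CPM of neutrophil and 83.1 CPM of monocyte markers, both within the range of WT replicates 1 and 2. The 10 endothelial markers summed to 438 to 549 CPM in MLIV, 502 CPM in the library labelled WT replicate 3, 288 and 338 CPM in WT replicates 1 and 2 and 301 to 355 CPM in FD, so that MLIV and that library lay above the others, as they did for Apoe. Bsg, which other cells also express, made up most of this sum (385 to 479 CPM in MLIV), and Cldn5 was at most 0.383 CPM in any library. The 10 markers of border macrophages summed to 599 to 614 CPM in MLIV, 698 to 882 CPM in FD and 619 to 1101 CPM in WT, with the highest value in the library labelled WT replicate 3. Stab1 was the largest part of these sums, at 320 to 412 CPM in MLIV, 566 to 639 CPM in FD and 521 to 567 CPM in WT. Mrc1 was at 118 to 141 CPM in MLIV, 34.5 to 140 CPM in FD and 29.2 to 306 CPM in WT, so MLIV was not lowest for it. The 10 oligodendrocyte markers summed to 64.0 to 74.9 CPM in MLIV, 57.5 to 84.6 CPM in WT and 58.6 to 74.3 CPM in FD, and all groups overlapped. The 10 neuron markers summed to 10.4 to 16.1 CPM in MLIV, 9.15 to 34.4 CPM in WT and 7.97 to 9.25 CPM in FD, so MLIV overlapped WT. The part of any of these cells in the differences of the 9 genes was not tested.

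Apoe is also made by astrocytes. The 12 astrocyte markers summed to 2097 to 2958 CPM in FD, 246 to 279 CPM in MLIV and at most 304 CPM in WT. Slc1a3 made up most of the sum in FD, and without it the sums were 20.3 to 76.6 CPM in FD, 32.1 to 41.3 CPM in MLIV and 22.2 to 87.5 CPM in WT. Gfap was at 2.13 to 3.85 CPM in MLIV, 0.291 to 4.19 CPM in WT and at most 0.787 CPM in FD. Aqp4 was at 2.01 to 3.81 CPM in MLIV, 4.51 to 7.43 CPM in WT and 3.28 to 6.81 CPM in FD, and Gja1 reached 0.751, 4.52 and 5.69 CPM in these groups. The part of astrocyte RNA in the level of Apoe was not tested. MLIV replicate 3, the library of that group with the transcripts of males, had Apoe at 5119 CPM, and the part of sex in the differences of the 9 genes was not tested. In sorted cells read in bulk, a change within each cell and a change in the share of cells of a kind cannot be told apart.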

How the data were processed

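Microglia were sorted by flow cytometry and their RNA was made into libraries with the SMARTer Stranded Total RNA-Seq Pico kit. The authors aligned reads to mm10 with STAR 2.5.1 and used featureCounts 1.4.6-p3, with no strand option and each mate taken singly, to make the deposited raw counts per gene. Reads from either strand could therefore be counted for a gene. The 2 deposited tables of the authors' own DESeq2 comparisons (means, fold changes and p-values) were not used.

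Genes kept by filterByExpr were tested with robust quasi-likelihood fits of edgeR 4.0.16 in R 4.3.3, with TMM factors, 1 mean per group and Benjamini-Hochberg adjustment over all genes tested. A call is an adjusted p below 0.05. SE is the log2 fold change divided by the root of its F statistic. Every fit was made with 9 libraries and with the 8 without the library labelled WT replicate 3, which was moved to no other group. Each library was also left out in turn, and DESeq2 1.42.0, other scalings, other filters, a replicate block and fits of only the groups compared were run. The removals and alternatives for genes outside the 9 were chosen after seeing the data. The fitting script was tested on simulated data.

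Named were the 9 genes, up to 4 genes per list and fit by smallest p, the 5 genes most like Apoe, and Mcoln1 and Gla. Of the list genes so chosen, those with a call and a few without one are described. The 9 genes and all lists were chosen with earlier results of these data known. Intervals are 95%.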

Additional observations from a re-analysis of the deposited data

Results flagged for a closer look

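The MLIV and FD libraries differed in 4 of the 9 genes in the direct test of one against the other with 8 libraries (edgeR, adjusted over all genes tested), a comparison in which genotype, colony and sex are not separated. The log2 difference was 1.97 for Apoe (adjusted p = 0.00174), 0.74 for Lpl (0.0432), 2.73 for Fabp5 (0.00755) and 1.33 for Plin2 (0.00737). For each of the 4, every MLIV library lay above every FD library. With all 9 libraries none of the 9 genes passed (3 had an unadjusted p below 0.05, and DESeq2 called 1), and with 8 libraries Lpl, Fabp5 and Plin2 each lost the call when certain single libraries were left out, while Apoe kept it.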

How the results depend on the processing

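In the 8-library fits Apoe kept its calls in MLIV against WT and against FD under every alternative run. For MLIV against WT 3 of the 9 genes were called, and 5 were with no filter on low counts or with only the groups compared (Plin2 and Acsl1 added), and 2 to 6 when each library was left out. DESeq2 called 4, among them Plin2 and Abca1, and gave Fabp5 no adjusted p, and library totals left 2, without Fabp5 (adjusted p = 0.0596). For MLIV against FD the 4 calls became 2 to 5 when each library was left out, 3 with library totals or only the groups compared (Lpl lost) and 6 with DESeq2 (Abca1 and Lrp1 added). For FD against WT the count of 0 became 1 with DESeq2, 2 with no filter (Lpl and Acsl1) and 0 to 2 when each library was left out. With 9 libraries the count of 0 became 1 for FD against WT with DESeq2 or no filter (Acsl1). For MLIV against FD it became 1 with DESeq2, no filter or at least 10 counts in every library, 3 with only the groups compared, and 0 to 4 when each library was left out. For MLIV against WT it was 0 to 3 over those removals, the 3 being without WT replicate 3.

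Replicate numbers did not pair the samples (correlations of -0.298 to 0.190 over 9 same-numbered pairs, 1 above 0.1). With the replicate block 4 of the 9 genes were called in MLIV against WT with 8 libraries (Plin2 added, adjusted p = 0.0198), 4 against FD and 0 with 9 libraries.

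The number of genes called among all tested, in MLIV against FD, was 194 with 9 libraries and became 548 with library totals, 1498 with DESeq2, 637 with no filter, 600 with at least 10 counts, 699 with only the groups compared and 87 with the block. In MLIV against WT with 9 libraries it was 0, and 14 with DESeq2. In FD against WT it was 52, and 173 with DESeq2, 94 with no filter and 33 with only the groups compared. With 8 libraries it was 296 in MLIV against WT, and 182 with a log2 fold change above 1, 717 with DESeq2, 683 with no filter, 1164 with only the groups compared and 471 with the block. It was 54 in FD against WT, and 126, 208 and 31 with DESeq2, no filter and only the groups compared, and 982 in MLIV against FD, and 440, 1812 and 1793 with the fold, DESeq2 and no filter. When each library was left out, these counts ran from 81 (without WT replicate 1) to 1515 (without FD replicate 3) in MLIV against WT, from 30 to 122 in FD against WT and from 369 to 1885 in MLIV against FD with 8 libraries, and from 0 to 296, 37 to 77 and 52 to 982 with 9.

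Of 47 sign changes none involved a call, and 30 were of Abcg1. With library totals, which shift the median of all genes by -0.20 (MLIV against WT, 8 libraries), -0.15 (9 libraries), -0.12 and -0.13 (MLIV against FD, 8 and 9 libraries), Abcg1 was at -0.14 (MLIV against WT), -0.10 (MLIV against FD) and -0.041 (FD against WT) with 8 libraries and at -0.12, -0.10 and -0.020 with 9, Abca1 at -0.014 in FD against WT with 8, Cd36 at -0.0044 in MLIV against WT with 9, and Lrp1 at -0.11 and -0.064 in MLIV against WT with 8 and 9. With at least 10 counts Abcg1 was at -0.0083 and -0.012 in MLIV against WT and against FD with 8 libraries, and at -0.023, -0.013 and -0.010 with 9 (FD against WT last). With 9 libraries Abcg1 was at -0.010 and -0.0079 with DESeq2 and at -0.010 and -0.0079 with RLE factors (FD and MLIV against WT), and in FD against WT at -0.039 with only the groups compared and -0.0031 with the block. When each library was left out, Abcg1 ranged from -0.070 to 0.18 (FD against WT), -0.12 to 0.16 (MLIV against FD) and -0.081 to 0.20 (MLIV against WT) with 8 libraries, and from -0.071 to 0.059, -0.13 to 0.15 and -0.13 to 0.15 with 9. Abca1 ranged from -0.17 to 0.068 in FD against WT with 9, Acsl1 from -0.39 to 0.0068 in MLIV against FD with 8, Apoe from -1.80 to 0.59, Lpl from -0.075 to 0.92 and Fabp5 from -2.26 to 0.19 in FD against WT with 9, Fabp5 from -0.14 to 0.51 and Cd36 from -1.76 to 0.81 in FD against WT with 8, Cd36 from -0.30 to 0.71 in MLIV against WT with 9, and Lrp1 from -0.018 to 0.22 in MLIV against WT with 8. Where a result changed, the cause was not tested.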
